A study of Mus musculus with 10 samples.

Results

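The nuclear genes of oxidative phosphorylation examined here were 53 genes that encode subunits of respiratory complexes I to IV, selected by gene name from the 54532 genes of an RNA-sequencing table of mouse lungs. They comprised 33 genes of complex I, 4 of complex II, 7 of complex III and 9 of complex IV, and all 53 were found in the table. The study asked how increased pulmonary blood flow (IncPBF) affects alveolar development before puberty. The IncPBF group held 5 lungs of wild-type C57/BL6 pups in which a fistula between the abdominal aorta and the inferior vena cava was made by puncture at postnatal day 7 (P7). The sham group held 5 lungs of wild-type pups that had the same anesthesia and laparotomy at P7 without the puncture. All lungs were taken at P14, whole tissue was profiled, and the pups were male or female with no sex given for single lungs.

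Expression was deposited as FPKM, the fragments on a gene scaled to its length in kilobases and to the size of the library. Comparisons of level between genes depend on the gene length in the table, and whether it matches the transcripts present was not tested. Fragments on genes ran from 16103423 to 20318525 per lung, and the members had between 79 and 4885 fragments in a lung. Lung identity was plain, since Sftpc, the surfactant protein gene of alveolar type 2 cells, averaged 10428 FPKM over IncPBF lungs against 12095 FPKM over sham lungs. Xist, which is expressed from the inactive X chromosome of females, measured 52.4 to 66.5 FPKM in IncPBF lungs 2 to 5. Its level was 0.0144 FPKM in IncPBF lung 1, and no sham lung exceeded 0.0770 FPKM. Ddx3y of the Y chromosome showed the opposite pattern, at 18.6 FPKM in IncPBF lung 1, 21.8 to 24.6 FPKM in sham lungs and at most 0.00926 FPKM elsewhere. Surgery and sex-linked expression therefore cannot be told apart in 4 of the 5 IncPBF lungs. In bulk tissue, fewer cells of a type and less RNA per cell cannot be told apart either.

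In the inner mitochondrial membrane, complex I takes electrons from NADH and complex II takes them from succinate, and both pass them to ubiquinone. Complex III moves the electrons on to cytochrome c, and complex IV hands them to oxygen. Complexes I, III and IV pump protons and also carry subunits encoded by mitochondrial DNA, while complex II pumps none and is encoded wholly in the nucleus. Each of the larger complexes has a core that carries out the redox chemistry and accessory subunits that surround it.

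Of the 53 genes, 23 were upregulated in IncPBF lungs relative to sham lungs and none was downregulated (limma adjusted p under 0.05 over 15388 genes). Both words name the direction of the group difference, and its cause was not tested. The upregulated share was 43.4% of the members, against 16.1% of all genes tested, and 16.2% of all genes tested were downregulated. At an unadjusted p under 0.05, limma placed 32 members and 21.7% of all genes tested higher and 0 members lower. At the same threshold, limma-voom on the recovered fragments placed 33 members and 21.6% of all genes higher and 0 members lower. The log2 fold change was above 0 for 50 of the 53 members. Its median was 0.22 over the members and 0.01 over all genes tested, and the members ran from -0.05 to 0.50. For 12 members the lowest IncPBF lung lay above the highest sham lung, and 12.0% of all genes tested separated in that direction. When each lung was scaled to the same total, 35 members and 23.1% of all genes tested were upregulated, and the share of higher calls among all calls was 66.6% in place of 49.9%.

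The counts differed between complexes. Complex IV had 6 of 9 genes upregulated with a median log2 fold change of 0.32, and complex I had 14 of 33 with a median of 0.22. Complex III had 2 of 7 with a median of 0.16, and complex II had 1 of 4 with a median of 0.13, or 0.084 without sham lung 5. In summed FPKM, complex I averaged 970 ± 44.4 (SD, n = 5) with IncPBF against 818 ± 84.9 with sham surgery, a ratio of 1.19. The ratio was 1.07 for complex II, 1.15 for complex III and 1.19 for complex IV. Differences between complexes were not tested.

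**Figure D1:**
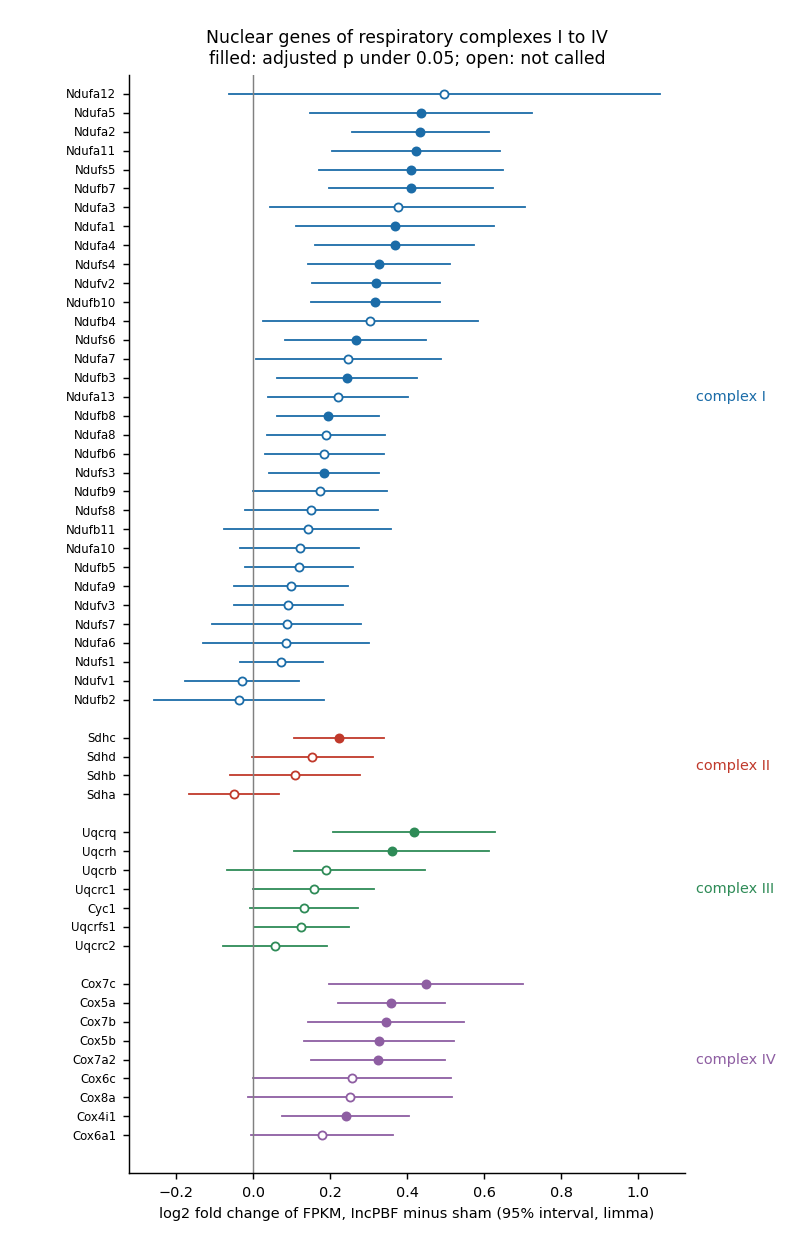
Log2 fold change of FPKM (IncPBF minus sham, horizontal axis) for the 53 genes, grouped by complex, with the 95% interval of the limma fit as a line, filled points at an adjusted p under 0.05. All filled points lie to the right of 0, and 3 open points lie to the left.

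The 2 groups separated in the average of the 53 genes, while only 12 of the single genes separated them without overlap. For each lung, the log2 values of the 53 genes were averaged relative to the sham mean. IncPBF lungs 1 to 5 stood at 0.19, 0.22, 0.19, 0.33 and 0.25, and sham lungs 1 to 5 at -0.18, 0.10, 0.10, 0.10 and -0.12. All IncPBF lungs lay above all sham lungs, and sham lungs 1 and 5 lay apart below the other sham lungs. The same order of groups held for complexes I, III and IV taken singly. Complex II overlapped, with a lowest IncPBF value of 0.05 and a highest sham value of 0.09.

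IncPBF lung 1, which had the sex-linked pattern of the sham lungs, had 47 of the 53 genes above the sham mean. Sham lungs 2, 3 and 4 had 47, 46 and 41 genes above that mean, which sham lungs 1 and 5 lowered, so the count does not set IncPBF lung 1 apart from them. Sham lung 1 was the lowest of all 10 lungs for 29 genes and sham lung 5 for 19, while IncPBF lung 4 was the highest of all lungs for 28. The coefficient of variation had a median of 10.9% among sham lungs and 7.03% among IncPBF lungs, and sham lungs had the larger value for 49 genes. Without sham lungs 1 and 5, an omission chosen after these values were seen, 11 members were upregulated beside 10.4% of all genes, and the median log2 fold change was 0.12. With log2 Xist as a covariate, no member and 2.13% of all genes tested were called higher by limma. At an unadjusted p under 0.05 in that fit, 5 members and 10.1% of all genes were higher. The fold change of 47 members was above 0 with a median of 0.17, and 46 of these were also above 0 without the covariate. Among the IncPBF lungs only lung 1 had little Xist, as all sham lungs did. The group difference in this fit therefore rests almost wholly on IncPBF lung 1, and the fit cannot separate surgery from sex.

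**Figure D2:**
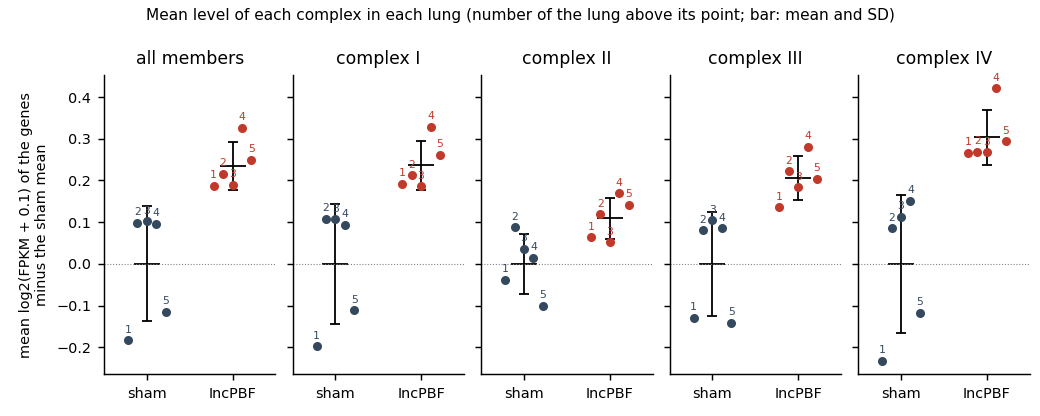
Mean of log2(FPKM + 0.1) over the genes of each complex in each lung, minus the sham mean (vertical axis), for the sham and IncPBF groups, with the lung number above its point and bars for the mean and SD. For all members the IncPBF lungs sit at 0.19 to 0.33 and the sham lungs at -0.18 to 0.10.

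Complex I carried the largest number of genes, and its accessory and core subunits were counted apart without a test of their difference. Among the 27 accessory genes, 12 were upregulated with a median log2 fold change of 0.25. Among the 6 genes of the catalytic core, Ndufs3 (0.18 ± 0.06, SE) and Ndufv2 (0.32 ± 0.08) were upregulated, with a median of 0.12 over the 6. Ndufv2 encodes an iron-sulfur subunit of the NADH-oxidizing module, and its FPKM was 28.9 ± 2.22 (SD, n = 5) with IncPBF against 23.2 ± 2.17 with sham surgery, without overlap. Ndufv1, which binds NADH and the flavin in the same module, was 26.1 ± 1.29 and 26.7 ± 2.49 FPKM (log2 fold change -0.03, limma adjusted p = 0.782). Ndufs1, Ndufs7 and Ndufs8, the other iron-sulfur subunits of the core examined, had log2 fold changes of 0.07, 0.09 and 0.15 and were not called.

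Ndufa2, an accessory subunit with a thioredoxin-like fold on the matrix arm, lies on chromosome 18 at 36742332 to 36744557 in the table. It measured 69.2, 71.6, 76.1, 82.7 and 65.7 FPKM in IncPBF lungs 1 to 5 against 48.9, 56.0, 59.7, 57.7 and 48.1 FPKM in sham lungs 1 to 5. The groups did not overlap, and the log2 fold change was 0.43 ± 0.08 (SE, limma adjusted p = 0.00232). An exact permutation test of all assignments of the lungs to groups gave p = 0.00794, the smallest value it can give (two-sided).

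Ndufa11, a membrane-arm subunit, measured 31.1, 31.7, 35.4, 34.9 and 31.2 FPKM in IncPBF lungs 1 to 5 against 18.6, 27.6, 25.0, 27.0 and 25.4 FPKM in the sham lungs. The groups did not overlap and sham lung 1 was far below the others (0.42 ± 0.10, adjusted p = 0.00817). Ndufa5, a matrix-arm subunit, measured 21.4, 22.3, 18.8, 19.7 and 21.2 FPKM in the IncPBF lungs against 12.6, 17.6, 17.0, 18.9 and 11.5 FPKM in the sham lungs. Here sham lung 4 reached into the IncPBF range while sham lungs 1 and 5 were low. Its log2 fold change was 0.44 ± 0.13 (adjusted p = 0.0265), and leaving out IncPBF lung 1, 2 or 5 or sham lung 1 moved the adjusted p to between 0.0510 and 0.0630.

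The other upregulated accessory genes were Ndufs5 (0.41), Ndufb7 (0.41), Ndufa1 (0.37), Ndufa4 (0.37), Ndufs4 (0.33), Ndufb10 (0.32), Ndufs6 (0.27), Ndufb3 (0.24) and Ndufb8 (0.20), all as log2 fold changes. Ndufs4 and Ndufs6 encode subunits near the NADH-oxidizing module, and Ndufs4 measured 12.6 ± 0.678 and 10.1 ± 1.26 FPKM in the IncPBF and sham groups. Ndufb7 and Ndufb10 belong to the membrane arm, and both separated without overlap. Ndufa4 was first described as a complex I subunit and was later assigned to complex IV. With Ndufa4 moved, complex IV had 7 of 10 upregulated genes and complex I 13 of 32. The calls for Ndufb3, Ndufb8, Ndufs6 and Ndufs3 were lost in 5, 6, 6 and 7 of the 10 fits that left out 1 lung, with an adjusted p of at most 0.111.

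Ndufa12 had the highest log2 fold change of all members, 0.50 ± 0.25, but was not called (adjusted p = 0.160). Its values were 6.07, 5.17, 3.42, 4.54 and 10.4 FPKM in the IncPBF lungs against 3.34, 4.06, 4.54, 4.93 and 2.89 FPKM in the sham lungs, and it was given by lung because of this spread. IncPBF lung 5 alone was far above the rest, and the other lungs of both groups overlapped. Ndufb2 had the lowest fold change of complex I, at 1.85 ± 0.161 and 1.91 ± 0.208 FPKM (-0.04, adjusted p = 0.808).

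Of the members, 3 lie on the X chromosome. Ndufa1, a small subunit needed to assemble the membrane arm, measured 52.6, 64.9, 56.7, 63.9 and 55.6 FPKM in IncPBF lungs 1 to 5 against 35.1, 48.9, 55.0, 50.6 and 40.2 FPKM in the sham lungs. Only sham lung 3 reached into the IncPBF range, and the gene was upregulated (adjusted p = 0.0335), a call lost without IncPBF lung 2, 3 or 4 or sham lung 1 or 5. Ndufb11, which had the highest mean FPKM of the 33 complex I members, measured 79.6, 73.2, 72.7, 79.5 and 73.5 FPKM in the IncPBF lungs against 58.5, 76.1, 83.4, 70.7 and 57.7 FPKM in the sham lungs. The sham lungs spanned the whole IncPBF range (0.14 ± 0.10, adjusted p = 0.303). Without the X-linked members, 21 of 50 genes were upregulated with a median of 0.22.

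Complex II showed the smallest change in summed level, 161 ± 6.07 FPKM with IncPBF against 150 ± 6.49 with sham surgery. Its share of the summed FPKM of all members was 7.56% ± 0.226 and 8.32% ± 0.631. Sdhc, a membrane anchor that helps bind ubiquinone, measured 30.3, 33.2, 31.3, 32.3 and 31.8 FPKM in IncPBF lungs 1 to 5 against 24.7, 28.9, 28.3, 28.0 and 26.3 FPKM in the sham lungs. The groups did not overlap, and Sdhc was upregulated (0.22 ± 0.05, adjusted p = 0.00880). The other anchor, Sdhd, had the highest mean FPKM of the 4 genes, at 58.0, 53.8, 50.4, 61.5 and 60.5 in the IncPBF lungs against 49.5, 51.9, 55.5, 53.04 and 45.3 in the sham lungs. IncPBF lungs 2 and 3 lay within the sham range, and the gene was not called (0.15 ± 0.07, adjusted p = 0.123).

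The catalytic subunits of complex II were not called. Sdha, the flavoprotein that oxidizes succinate, measured 44.6, 46.2, 42.8, 42.7 and 46.7 FPKM in the IncPBF lungs against 48.6, 48.3, 42.1, 45.1 and 46.9 FPKM in the sham lungs. Its log2 fold change of -0.05 was the lowest of the 53 (95% interval -0.17 to 0.07). Sdhb, the iron-sulfur subunit, measured 24.9, 27.5, 27.9, 30.8 and 26.9 FPKM against 24.7, 28.7, 27.2, 25.4 and 22.1 FPKM. Its groups overlapped widely (0.11, 95% interval -0.06 to 0.28).

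**Figure D3:**
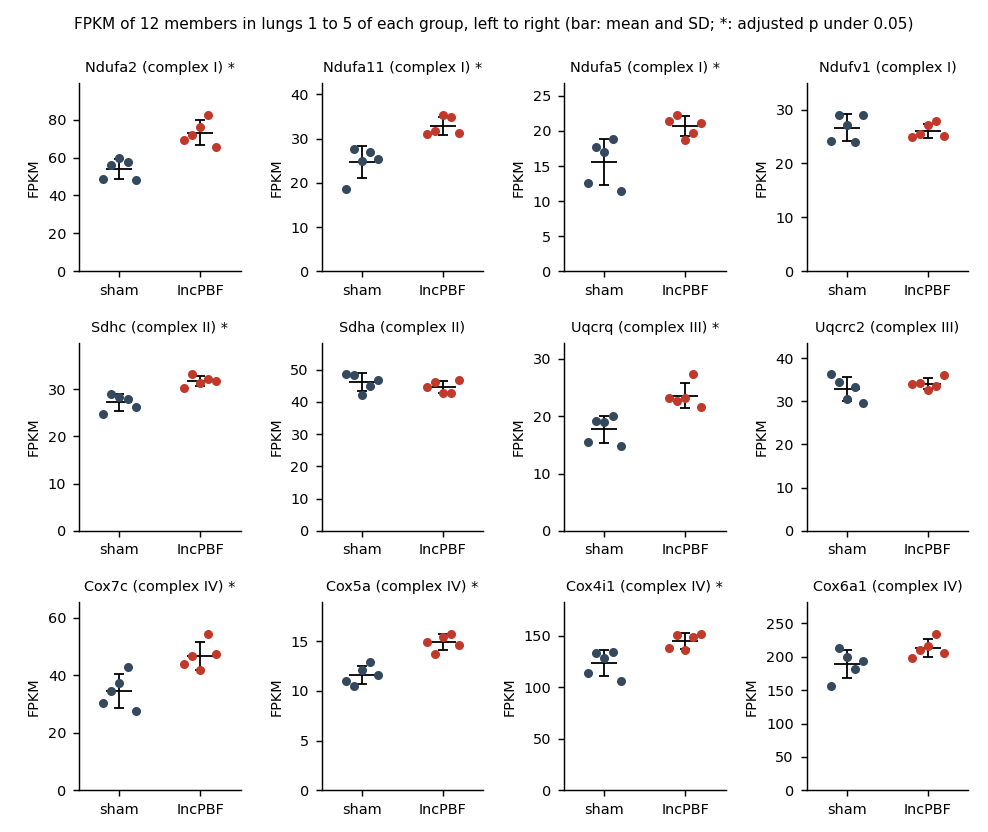
FPKM (vertical axes, from 0) of 12 genes in lungs 1 to 5 of the sham and IncPBF groups, left to right, with bars for the mean and SD and a star at an adjusted p under 0.05. Ndufa2, Ndufa11, Sdhc, Uqcrq, Cox5a and Cox4i1 separate the groups, while Ndufv1, Sdha, Uqcrc2 and Cox6a1 overlap.

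In complex III the upregulated genes were both accessory. Uqcrq, a small subunit beside cytochrome b, measured 23.2, 22.6, 23.1, 27.3 and 21.6 FPKM in IncPBF lungs 1 to 5 against 15.5, 19.2, 19.0, 20.1 and 14.8 FPKM in the sham lungs. The groups did not overlap (0.42 ± 0.10, adjusted p = 0.00716). Uqcrh, the hinge protein that aids the docking of cytochrome c, had the highest mean FPKM of the 7 members, at 65.4, 66.2, 54.5, 67.6 and 60.5 FPKM in the IncPBF lungs against 41.2, 52.8, 54.9, 59.1 and 39.3 FPKM in the sham lungs. IncPBF lung 3 lay below sham lungs 3 and 4, the log2 fold change was 0.36 ± 0.12 (adjusted p = 0.0349), and the call was lost without IncPBF lung 1, 2, 4 or 5 or sham lung 1 or 5.

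The 4 genes that build the core and carry electrons in complex III had a median log2 fold change of 0.13, and limma called none of them, with 1 of the 4 higher at an unadjusted p under 0.05. Uqcrfs1, the Rieske iron-sulfur protein, was 44.5 ± 1.15 and 40.9 ± 3.16 FPKM (0.13 ± 0.06, adjusted p = 0.113). Cyc1, the cytochrome that donates electrons to cytochrome c, had a log2 fold change of 0.13, and the core proteins Uqcrc1 and Uqcrc2 had 0.16 and 0.06. Uqcrb, the remaining accessory subunit, was also not called (0.19 ± 0.12, adjusted p = 0.244).

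Complex IV had the largest upregulated share. Cox7c, a small structural subunit, measured 43.9, 46.6, 41.6, 54.4 and 47.4 FPKM in IncPBF lungs 1 to 5 against 30.4, 34.4, 37.4, 42.9 and 27.5 FPKM in the sham lungs. Sham lung 4 alone reached into the IncPBF range, and the log2 fold change of 0.45 ± 0.11 was the highest among the upregulated members (adjusted p = 0.0124). Cox5a, which sits on the matrix side, measured 14.9, 13.7, 15.4, 15.8 and 14.6 FPKM in the IncPBF lungs against 11.0, 10.5, 12.1, 12.9 and 11.6 FPKM in the sham lungs. The groups did not overlap, the log2 fold change was 0.36 ± 0.06, and its adjusted p of 0.00170 was the smallest of the members.

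Cox7b, on the X chromosome, measured 25.6, 27.9, 28.8, 30.8 and 27.8 FPKM in the IncPBF lungs against 20.3, 24.0, 24.2, 25.0 and 17.9 FPKM in the sham lungs. The groups did not overlap, and IncPBF lung 1, with little Xist, was the lowest of its group (0.34 ± 0.09, adjusted p = 0.0155). A single such lung does not separate surgery from sex. Cox5b (0.33), which binds zinc, Cox7a2 (0.32), the widely expressed isoform of its subunit, and Cox4i1 (0.24), the largest nuclear subunit, were upregulated without overlap. The call for Cox4i1 was lost without IncPBF lung 2, 4 or 5 or sham lung 1 or 5.

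Cox6a1 had the highest mean FPKM of all members, at 197, 210.0, 216, 234 and 206 in the IncPBF lungs against 156, 212, 199, 181 and 194 in the sham lungs. The groups overlapped (0.18 ± 0.08, adjusted p = 0.126). Cox8a (0.25) and Cox6c (0.26) were likewise not called, with adjusted p of 0.134 and 0.116.

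Subunits outside the 53 were taken from lists written from general knowledge with earlier results of these data known. Their counts stand beside 16.1% of all genes tested upregulated and 16.2% downregulated. Among 18 genes of complex V, the ATP synthase, 11 were upregulated and none was downregulated, with a median log2 fold change of 0.32. They included Atp5g1 (0.43) of the membrane ring, the inhibitor Atpif1 (0.51) and Atp5mpl (0.43). The catalytic subunits Atp5a1 and Atp5b were not called, at 147 ± 5.25 and 146 ± 5.07 FPKM for Atp5a1 and 124 ± 5.43 and 120 ± 7.14 FPKM for Atp5b, in IncPBF and sham order. Of 8 further subunits of complexes I to IV, 5 were upregulated, among them Ndufc1 (0.39) and Uqcr10 (0.38).

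Among the subunits encoded by mitochondrial DNA, 12 were tested, with a median log2 fold change of 0.37 and all above 0. The highest, mt-Co2 (0.63), was not called and measured 160 FPKM in IncPBF lung 5 against 53.7 to 69.7 FPKM in the other IncPBF lungs. Mean levels in IncPBF lungs ran from 20.8 FPKM for mt-Nd4l to 5142 FPKM for mt-Co1, and the reason for this range was not tested. Only mt-Nd4 was called (0.40 ± 0.14, adjusted p = 0.0439), or 8.33% of the 12, below the 16.1% of all genes tested. At an unadjusted limma p under 0.05, 7 of the 12 and 21.7% of all genes tested were higher. Cycs, the cytochrome c that links complexes III and IV, was upregulated (0.35 ± 0.10, adjusted p = 0.0168).

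Among 6 tissue-restricted isoforms tested, 2 were downregulated and none was upregulated by limma, with 0 higher at an unadjusted p under 0.05. Of all genes tested, 16.2% were downregulated. Cox6a2, the muscle isoform of the subunit that Cox6a1 encodes, measured 2.21, 1.73, 2.39, 2.64 and 2.12 FPKM in IncPBF lungs 1 to 5 against 3.52, 2.73, 3.52, 4.31 and 5.07 FPKM in the sham lungs. It was downregulated without overlap (-0.74 ± 0.16, adjusted p = 0.00470). Cox6b2 was downregulated as well (-0.38 ± 0.12, adjusted p = 0.0277), at 7.30 ± 0.678 and 9.62 ± 1.68 FPKM. Cox4i2, the isoform known from the lung, was 87.5 ± 10.6 and 79.3 ± 10.1 FPKM (0.14), and Ndufa4l2 was 54.1 ± 5.17 and 52.0 ± 8.05 FPKM (0.06). Neither was called, nor were the low genes Cox7a1 (-0.06) and Cox8b (-0.56), and Cox8c was listed at 0 in all lungs.

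Factors that assemble the complexes were counted in the same way, beside 16.1% of all genes tested upregulated and 16.2% downregulated. Of 15 complex I assembly factors 6 were upregulated, among them Ndufaf6 (0.59), Ndufaf8 (0.49) and Ndufaf4 (0.37), with a median of 0.13. Of 28 factors for complexes II to IV, Uqcc2 (0.51) and Cox19 (0.26) were upregulated, with a median of 0.05. Among 15 regulators of mitochondrial biogenesis, Pprc1 (0.52), Gabpb1 (0.31) and Esrra (0.19) were upregulated, and Yy1 (-0.27) and Polg (-0.26) were downregulated. Ppargc1a, the coactivator best known in this process, was 0.798 and 0.872 FPKM on average in the IncPBF and sham groups and was not called.

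Calls in the pathways that feed the chain went in both directions, as did those of all genes tested (16.1% higher and 16.2% lower). Of 14 enzymes of the tricarboxylic acid cycle 4 were upregulated, with Suclg2 (0.35) the highest, while Ogdh (-0.24) and Suclg1 (-0.21) were downregulated. Of 15 genes of mitochondrial fatty acid oxidation, Etfb (0.46) and Acads (0.43) were upregulated, and Acadm (-0.44) and Cpt1a (-0.21) were downregulated. The upregulated share of this list was 13.3%, near that of all genes tested. The large mitochondrial ribosomal subunit had 18 of 47 genes upregulated and none downregulated (median 0.20). Cytosolic ribosomal proteins had 16 of 50 upregulated, none downregulated and a median of 0.25.

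**Figure D4:**
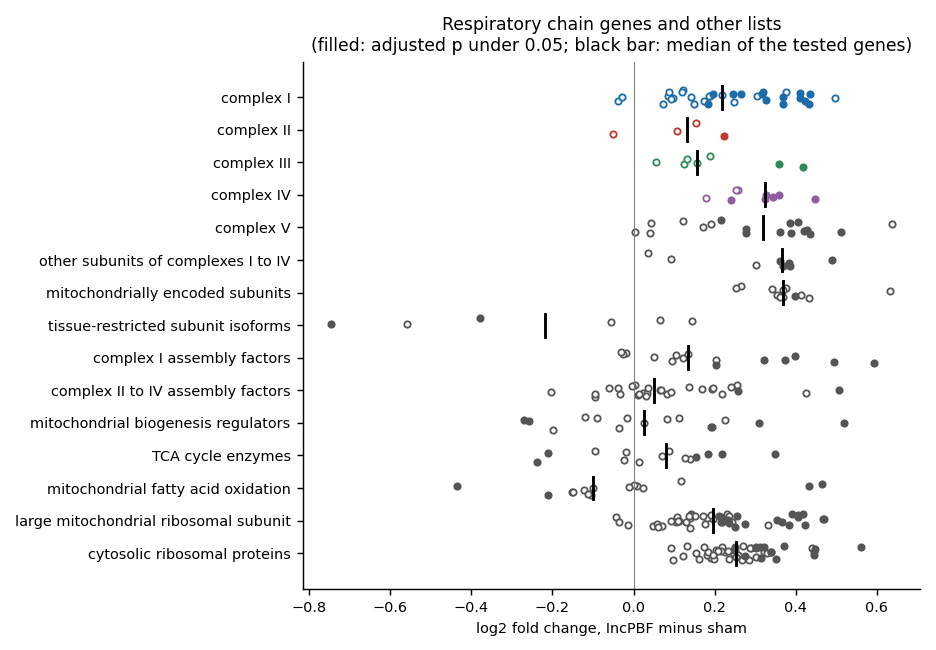
Log2 fold change of FPKM (IncPBF minus sham, horizontal axis) of single genes in the members' complexes and the other lists, filled at an adjusted p under 0.05, with a black bar at the median of each list. Complexes IV and V have medians of 0.32, and the tissue-restricted isoforms have a median of -0.22.

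Gene length and promoter sequence were examined as properties that the selection of members did not use. Gene length was 1569 bases at the median against 3786 for all genes tested. Below 1 kb, the median log2 fold change was 0.24 for 13 members and 0.15 for all genes, and from 1 to 2 kb it was 0.32 for 20 members and 0.11 for all genes. From 2 to 4 kb, these medians were 0.16 and 0.04, and above 4 kb they were 0.10 over 6 members and -0.04. Shorter genes had higher fold changes (Spearman's rho -0.42 over 53 members and -0.21 over 15388 genes, given as a description across genes that share the same 10 lungs). After each lung was corrected for gene length, 18 members and 15.1% of all genes tested were upregulated, with a members' median of 0.14. With the mean of the cytosolic ribosomal proteins as a covariate, Cox5a alone of the members and 5.40% of all genes tested were called higher, and the members' median was 0.06. This covariate itself averaged 0.27 in IncPBF lungs relative to the sham mean, and sham lungs 1 and 5 were lowest, at -0.22 and -0.25. The covariate therefore takes up part of the group difference, and the fit cannot separate the covariate from the group.

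**Figure D5:**
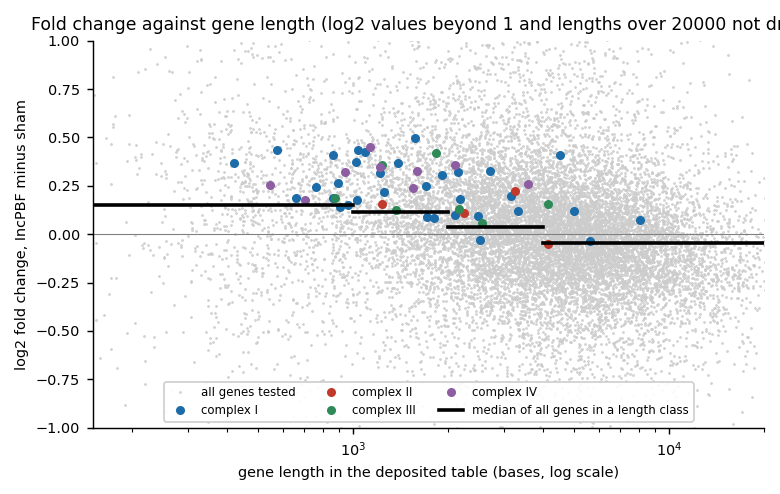
Log2 fold change (IncPBF minus sham, vertical axis) against gene length in bases (horizontal log axis) for all genes tested in grey and the members in the color of their complex, with black lines at the median of all genes in each length class. The class medians of all genes fall from 0.15 to -0.04, and the members' medians in the same classes are 0.24, 0.32, 0.16 and 0.10.

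RefSeq promoters on GRCm38.p6, from 250 bases before to 50 bases after each start, were matched for 43 of the 53 members. The letters GCGCNTGCG, part of the site known for the factor NRF1, were found on either strand in 13 of the 43 promoters (30.2%) and in 7.12% of the promoters of 27025 genes. CCGGAAG, an ETS-family site that GABP binds, was found in 9 of 43 (20.9% against 9.93%), and ATGGCGGC, a YY1 site, in 6 of 43 (13.95% against 2.61%). These were 3 of 8 letter patterns searched, and they were chosen after their matches were seen. The NRF1 letters without a free base, GCGCATGCG, are contained in the looser ones and matched 4 of 43 (9.30% against 1.95%), and 1 base longer they matched 2. The GC box GGGCGG (44.2% against 38.2%), CCAAT (34.9% against 41.1%) and TATAAA (9.30% against 15.7%) were also searched. The YY1 letters of Ndufb5, Ndufa9, Ndufs7, Ndufs6 and Ndufs4 reached past the start, and all YY1 windows overlapped an annotated exon. The 27025 genes were not limited to expressed ones, while all members were expressed. A match describes the letters in a window and not a bound site.

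NRF1 letters stood in 5 of the 19 upregulated members with a promoter and in 8 of the 24 others. The windows below show the match in capitals with the bases around it, read along the strand of the gene, for 5 upregulated genes and 3 that were not called, so that both kinds can be compared.
Ndufa5: gtgtgagctgCGCAGGCGCaaatctacct
Ndufa11: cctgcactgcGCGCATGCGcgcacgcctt
Ndufb10: ctgcccactaCGCAGGCGCagctgtcacc
Ndufs5: ctgcttgctgCGCAGGCGCagacccgctg
Ndufs6: cgactgctgtGCGCCTGCGccggcacttg
Ndufa12: ctccagctctGCGCCTGCGtagaacgacc
Sdha: gggcgtgttgCGCAGGCGCagaatcttcc
Cox6a1: ggataaagtgCGCAGGCGCtggagttcct
The same 9 letters, CGCAGGCGC, stand in the upregulated Ndufa5, Ndufb10 and Ndufs5 and in Sdha and Cox6a1, which were not called. Ndufs6, upregulated, and Ndufa12, not called, hold these letters on the other strand, read here as GCGCCTGCG. Ndufa11, Sdha and Cox6a1 have further NRF1 matches that are not shown. On GRCm38.p6 the windows lie at chr6:24527697-24527725 for Ndufa5, chr17:56717692-56717720 for Ndufa11, chr17:24724431-24724459 for Ndufb10 and chr4:123718265-123718293 for Ndufs5. Those of Ndufs6, Ndufa12, Sdha and Cox6a1 lie at chr13:73328480-73328508, chr10:94198905-94198933, chr13:74350276-74350304 and chr5:115349056-115349084. Ndufa11 and Ndufa12 are on the plus strand and the other 6 genes on the minus strand.

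Markers of cell types also differed between the groups, beside 16.1% of all genes tested upregulated and 16.2% downregulated. All 8 alveolar type 1 genes were downregulated, and their summed FPKM was 1254 to 1368 with IncPBF against 1575 to 2090 with sham surgery. Alveolar type 2 genes were downregulated in 4 of 8 cases and endothelial genes in 5 of 8, with Egfl7 upregulated. Smooth muscle genes were upregulated in 5 of 7 cases (summed FPKM 314 to 609 against 112 to 247), and all 6 proliferation genes were upregulated (38.6 to 47.9 against 14.5 to 25.9). Erythroid genes were downregulated in 4 of 6 cases. The part of these cells in the results on the respiratory chain was not tested.

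Of tissues rich in mitochondria, the 7 cardiac muscle genes tested gave no call by limma, with 1 higher at an unadjusted p under 0.05 (summed FPKM 35.6 to 103 against 11.1 to 48.8). The log2 fold change was above 0 for 6 of these 7 genes, with a median of 0.62. Nppa, which is typical of atrial muscle, was below the filter and averaged 0.0120 and 0.0369 FPKM. Ucp1 of brown fat, also below the filter, averaged 0.136 and 0.00640 FPKM, and Elovl3 was listed at 0. The 2 brown fat genes tested had log2 fold changes of -0.57 and -0.56. Skeletal muscle, ciliated, club, macrophage and brown fat genes gave no call either, with 1 higher and 4 lower at an unadjusted p under 0.05 over these lists, and no white fat gene passed the filter.

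For 18 of the 53 members the gene overlaps another expressed gene in the table, mostly on the opposite strand, and whether counting used the strand is not given in the sources used here. Among the genes above these were Ndufa2 with Tmco6, Ndufa11 with Vmac, Ndufv2, Ndufs3, Ndufs6, Uqcrh, Cox4i1 with Emc8, and Cox7c.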

How the data were processed

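Total RNA of whole lungs was made into NEBNext libraries and sequenced, and the authors deposited one table of FPKM with gene positions and lengths. The submitters' processing notes name Bowtie 0.12.2 and the builds hg38, GRCm38 and mm10 without a role for each. The counting software and its use of strand are not given in the sources used here. Columns of IncPBF lungs are abbreviated differently from the titles, and they were taken as that group because every other column is named sham. Of the rows shared with GENCODE M21 on GRCm38, 98.3% had identical coordinates.

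After multiplication by gene length, 100% of the FPKM in a lung were whole multiples of 1 unit (tolerance 0.01), which gave the fragments per gene. These fragments were used for depth, for which only counting error is covered, and for limma-voom as an alternative.

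Genes that averaged 0.5 FPKM or more were fitted on the scale log2(FPKM + 0.1) by limma 3.58.1 in R 4.3.3 (linear model and trended eBayes) for the difference between groups, without covariates. Calls used a Benjamini-Hochberg adjusted p under 0.05 over 15388 genes. Adjusted p values in the text come from this limma fit, except those given for fits that left out 1 lung. The latter were adjusted over the genes tested in each such fit. Fold changes are on this log2 scale, which understates changes of low genes. Single genes were also compared by exact permutation. The p values measure the spread between these lungs only, since the labels do not name litters or cages. Lists, promoter matches and figures were made in Python 3.11.15 (pandas 2.3.3, matplotlib 3.10.9). The fit was tested on simulated data, where it missed part of the changes, mainly small ones and those in variable genes, so genes that were not called may still differ.

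The members and all lists were chosen with earlier results of these data known. Values by lung are given for the 3 upregulated genes with the largest fold change in each complex and for all of complex II. They are also given for the gene with the highest mean FPKM in each complex and for members on chromosome X, as set by rule. The rule allowed up to 5 called genes in each direction per other list, ranked by fold change, and all tissue-restricted isoforms. Ndufa12 by lung, Cox6a2 as the isoform shown by lung, and Atp5a1, Atp5b and Ppargc1a were added after their values were seen. Nppa, Ucp1 and Elovl3 were also named outside this rule. Alternatives set beforehand were the pseudocount (1 or 0.01), the filter (1 or none), scaling, eBayes without a trend, a block for the replicate number, log2 Xist or the mean of ribosomal proteins as a covariate, voom, a length correction (loess span 0.5), separation of the groups and each lung left out. Added after the data were seen were the correction for GC content and length, also with the block, the omission of sham lungs 1 and 5, and that of genes on chromosomes X and Y.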

Additional observations from a re-analysis of the deposited data

Results flagged for a closer look

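Among 120 groups of 5 lungs examined gene by gene, 4 held a lung far from the other lungs of its group, and chance alone marks about 1 in 20 groups. Ndufa11 measured 18.6 FPKM in sham lung 1, against 25.0 to 27.6 FPKM in the other sham lungs. IncPBF lung 4 was far above its group for Ndufb4, at 14.2 FPKM against 11.2 to 11.8 FPKM, and for Uqcrq, at 27.3 FPKM against 21.6 to 23.2 FPKM. Cox8b, an isoform of low level, measured 4.13 FPKM in sham lung 2 against 1.28 to 2.03 FPKM in the others of its group.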

How the results depend on the processing

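The median log2 fold change of each complex stayed above 0 under each alternative, and no upregulated member turned downward. Of the 23 upregulated members, 15 were called with any single lung left out. Leaving out 1 lung gave 15 (without sham lung 1) to 26 upregulated members, 8 to 17 in complex I, 1 to 3 in complex III and 5 to 7 in complex IV, and a median of complex II from 0.084 (without sham lung 5) to 0.16. In the other mitochondrial lists, 69 genes were upregulated and 8 downregulated, and leaving out 1 lung gave 33 to 92 upregulated, with 43 without IncPBF lung 2, 33 without IncPBF lung 4, 42 without sham lung 1 and 36 without sham lung 5. No filter left 16 members and 36 genes of the other lists upregulated. An equal total per lung gave 35 members, 111 and 4 genes of the other lists higher and lower, and 0.21 for the median of complex II. With log2 Xist as a covariate, 0 members and, in the other lists, 0 higher and 2 lower genes were called, the median of complex II was 0.059, and all genes gave 328 higher and 413 lower. With the ribosomal protein mean as a covariate, 1 member, 4 higher and 1 lower gene of the other lists, and 831 higher and 798 lower of all genes were called, and the medians of complexes I to IV were 0.064, 0.0048, 0.051 and 0.12. Complex II had a median of 0.040 after the length correction and 0.039 after that for GC content and length, without or with the replicate block. With this correction 16 members were upregulated, and with the block in addition 17, with 13 genes of the other lists lower. Without sham lungs 1 and 5, 11 members, 23 higher and 4 lower genes of the other lists, and 1609 higher and 1489 lower of all genes were called, and the median of complex II was 0.053. Groups without overlap were 12 members and 39 genes of the other lists. The cause of these shifts was not tested, and the fits that left out lungs also had fewer lungs. Without sham lung 2, 3 or 4, 26, 25 and 24 members were upregulated. Without sham lung 5 or any 1 IncPBF lung the number was 16 to 20. The replicate block alone gave 25 upregulated members, 22 of them among the 23. Lungs with the same number had deviations that correlated at -0.07 to 0.09, against -0.20 to 0.22 for other numbers, and 2 IncPBF lungs correlated best with their own number, so the numbers were not taken as pairs. The length correction gave 18 upregulated members, and the other settings gave 20 to 27.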
